A study of Mus musculus with 12 samples.

Results

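Reads counted to 7 pseudogenes, Gm29216, Gm28661, Gm10925, Gm28437, Gm28438, Gm28439 and Gm4076, are described here as stand-ins for transcripts of the mitochondrial genome. They were chosen by Ensembl identifier as near-identical nuclear copies of mt-Co1, mt-Co2, mt-Atp6, mt-Co3, mt-Nd3, mt-Nd4 and mt-Nd5, which are themselves listed at 0. All 7 were found among the 57010 identifiers in the count files. The choice used the sequence match and the level of the mitochondrial genes over all libraries. It named no direction between groups, so the level of the copies is given as a description, and differences between groups are read from a fit over all genes.

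Poly(A) RNA had been sequenced from 12 libraries of primary mouse chondrocytes of wild-type genotype, 4 per treatment label. The labels are Control, WT (cells transfected with the wildtype plasmid) and SIRT5F101L (cells transfected with the mutant plasmid). SIRT5 is a sirtuin of the mitochondria that strips acidic acyl groups such as malonyl from lysine side chains. What the Control cells received, the plasmid's promoter, and the age, sex and strain of the mice are not stated in the labels. Nothing in them says that the 4 libraries of a group came from separate animals or cultures, so p-values measure the spread between these libraries, which may be technical.

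Mitochondrial DNA encodes 13 proteins of the oxidative phosphorylation complexes. It is transcribed as long polycistronic RNAs, which are cut at the transfer RNAs into messenger RNAs that mostly carry short poly(A) tails. Fragments of this genome have been inserted into nuclear chromosomes during evolution, and a recent insertion can match its source so closely that a short read fits both places. Chondrocytes live in poorly perfused cartilage and rely largely on glycolysis, with a respiratory chain that is nonetheless active.

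The mitochondrial genes themselves held no counts: each of the 37 mitochondrial identifiers was at 0 in all 12 libraries, as were 2414 identifiers of the X and 1547 of the Y chromosome in GENCODE M21. Library totals ran from 15095357 to 24242139 counts. Sirt5 had 1 to 19 counts per library, 0.688 ± 0.169 CPM in Control, 0.383 ± 0.229 in WT and 0.720 ± 0.346 in SIRT5F101L (CPM, the count scaled to the library's total and its TMM factor; mean ± SD, n = 4). Its log2 fold changes against Control, -0.86 (SE 0.49, adjusted p 0.143 by edgeR) and 0.03 (SE 0.45, adjusted p 0.954 by edgeR), did not pass the test, so the plasmid labels had no check in Sirt5 counts. Of the 8 chondrocyte markers examined, all averaged over 1 CPM in Control and 7 in each plasmid group. Their summed level was 8981 to 11285 CPM in Control, 2807 to 2919 in WT and 2288 to 2532 in SIRT5F101L, while 8 leukocyte markers summed to 169 to 204 CPM in Control, 130 to 149 in WT and 139 to 178 in SIRT5F101L, with Itgam listed at 0. Endothelial markers (4) summed to 2.60 to 4.52 CPM and skeletal muscle markers (5) averaged a sum of 6.93 CPM in Control and 2.41 CPM in SIRT5F101L. Osteoblast markers (4) summed to 14.8 to 22.2 CPM in Control and 1.13 to 2.05 CPM in the plasmid libraries. Among chondrocyte markers, Col2a1 was at 6712, 1663 and 1311 CPM in Control, WT and SIRT5F101L, Sox9 at 142, 124 and 113, and Acan at 133, 184 and 143. The slope of a line through log2 CPM against log2 transcript length was 0.579 to 0.601 in Control, 0.609 to 0.697 in WT, 0.586 in SIRT5F101L replicate 1 and 0.726 to 0.748 in the other 3 SIRT5F101L libraries. The part of the marker levels in the differences described here was not tested.

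Of the copies, 6 lie side by side on chromosome 1 and carry the genes in the order of the mitochondrial genome. In GENCODE M21 (GRCm38), Gm29216, Gm28661, Gm10925, Gm28437, Gm28438, Gm10222 and Gm28439 follow each other on the minus strand within 4663 bases. Gm10222, a copy of mt-Nd4l, overlaps Gm28439 by 4 bases and is not one of the 7. Gm10925 and Gm28437 are 2 bases apart. Gm4076, on chromosome 13, is annotated as a processed pseudogene and the other 6 as unprocessed. The processing notes name GRCm39 for these files, so no GRCm38 coordinates are given.

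Of the 7, Gm28661, Gm10925, Gm28437 and Gm28439 matched their mitochondrial gene at every aligned base, over 681, 678, 783 and 876 bases. Every 150-base stretch of these copies, the length of one read, was therefore the same in the nuclear copy and the mitochondrial gene. Which of the 2 places a read came from cannot be told apart from such counts. The first 120 bases show why, and each line stands for both the copy and its source.
Gm28661 and mt-Co2: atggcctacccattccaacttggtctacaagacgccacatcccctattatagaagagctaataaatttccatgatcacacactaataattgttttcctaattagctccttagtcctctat
Gm10925 and mt-Atp6: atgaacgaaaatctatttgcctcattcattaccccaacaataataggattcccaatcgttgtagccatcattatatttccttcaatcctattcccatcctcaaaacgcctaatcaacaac
Gm28437 and mt-Co3: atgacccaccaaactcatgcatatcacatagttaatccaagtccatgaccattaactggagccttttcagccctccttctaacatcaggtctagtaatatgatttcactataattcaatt
Gm28439 and mt-Nd4: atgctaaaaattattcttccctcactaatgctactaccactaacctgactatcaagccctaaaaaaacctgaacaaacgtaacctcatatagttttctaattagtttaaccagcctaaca

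Gm28438 and Gm29216 each differed from their source at 1 aligned base. In Gm28438 this was T3C (the mt-Nd3 base, its position from 1 at the gene's first base, then the copy's base), in the first codon. In Gm29216 it was A1066T relative to mt-Co1, near the first base of the match, and the copy covers only the last 31.3% of mt-Co1. In the lines that follow, capitals mark bases that differ between copy and source. For Gm29216 the first 9 bases lie outside the match and hold all but 1 of the marked differences. All sequences are from GENCODE M21 transcripts.
Gm28438: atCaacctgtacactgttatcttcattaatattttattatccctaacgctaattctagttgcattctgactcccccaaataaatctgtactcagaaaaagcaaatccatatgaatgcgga
mt-Nd3: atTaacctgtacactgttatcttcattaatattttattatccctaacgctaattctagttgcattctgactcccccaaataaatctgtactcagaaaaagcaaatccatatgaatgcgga
Gm29216: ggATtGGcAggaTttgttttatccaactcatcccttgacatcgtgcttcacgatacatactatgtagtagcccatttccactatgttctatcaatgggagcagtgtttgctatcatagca
mt-Co1: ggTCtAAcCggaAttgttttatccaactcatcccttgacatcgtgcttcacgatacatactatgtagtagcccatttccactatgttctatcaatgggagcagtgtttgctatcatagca

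Gm4076 was the least like its source. It matched mt-Nd5 at 95.2% of 954 aligned bases, with 45 substitutions, and covered 52.3% of that gene. A 150-base stretch of it held 3 to 12 differences (median 7). The 120 bases with the most differences, 12 of them in capitals, show how a read from mt-Nd5 would differ.
Gm4076: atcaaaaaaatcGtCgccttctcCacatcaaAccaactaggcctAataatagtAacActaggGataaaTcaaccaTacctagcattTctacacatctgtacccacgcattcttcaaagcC
mt-Nd5: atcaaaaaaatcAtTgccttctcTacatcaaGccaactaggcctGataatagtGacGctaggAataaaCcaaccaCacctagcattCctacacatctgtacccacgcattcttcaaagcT

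Together the 7 copies took 1.33% of counts in Control replicate 1, the lowest by this share, and 1.94% in SIRT5F101L replicate 2, the highest. The group means were 1.52% ± 0.167 in Control, 1.55% ± 0.102 in WT and 1.64% ± 0.217 in SIRT5F101L (SD, n = 4). Their summed level was 14103, 14906, 16056 and 17983 CPM in Control replicates 1 to 4, 14406, 15208, 14497 and 16774 CPM in WT, and 16242, 18981, 15364 and 13766 CPM in SIRT5F101L. The 3 groups overlapped. The lowest library changed with the scaling, from Control replicate 1 by share of counts to SIRT5F101L replicate 4 by CPM, and SIRT5F101L replicate 2 was the highest by both. These are shares of counted RNA. In such bulk samples fewer cells of a type and less RNA per cell cannot be told apart.

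Per kilobase of annotated transcript, 4 copies stood among the 5 highest of 14080 tested genes with a length. Gm29216 averaged 6818 CPM per kb, Gm28661 5440, Gm10925 5272 and Gm28437 4304, against a median of 6.29 over all tested genes. Gm28439 averaged 1369 CPM per kb, Gm28438 776 and Gm4076 229. The first 4 are copies of genes for cytochrome oxidase and ATP synthase, and the last 3 are copies of genes for NADH dehydrogenase. The copies also differ in length and match: Gm28438 is 345 bases long, and no 150-base stretch of Gm4076 equals its source. The part of length and match in these levels was not tested.

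**Figure D1:**
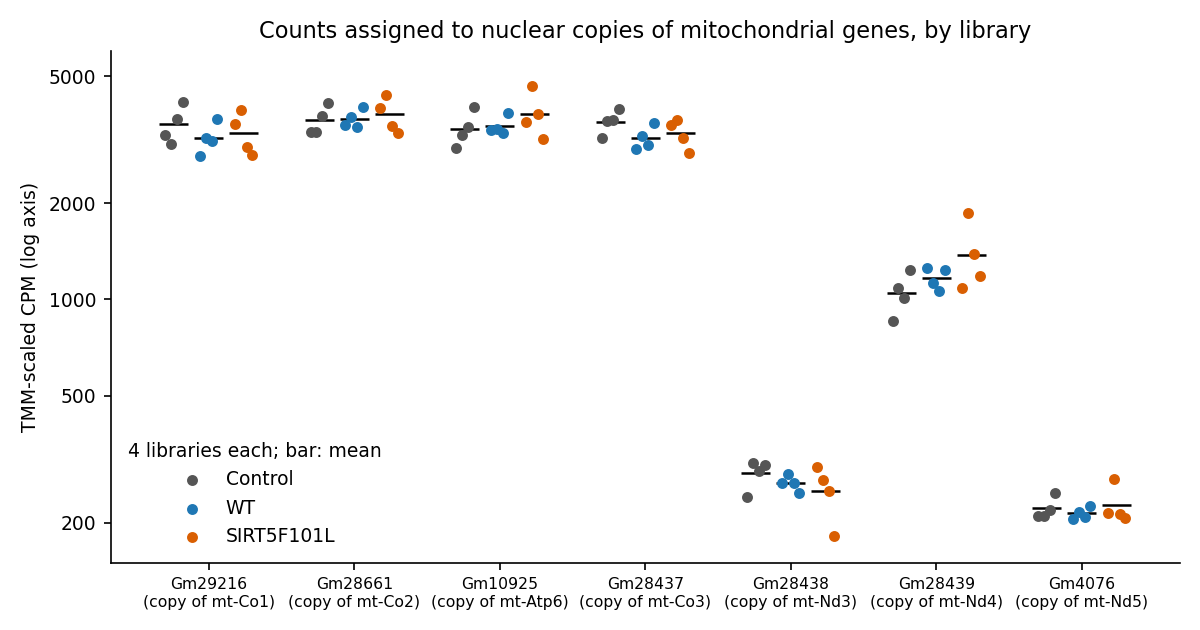
Level of each copy in every library, as TMM-scaled CPM on a log axis; points are libraries coloured by group and bars are group means over 4 libraries. The 4 copies of cytochrome oxidase and ATP synthase genes lie between 2816 and 4659 CPM, and the 3 groups overlap for every copy.

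The wild-type plasmid was compared with Control first. None of the 7 copies was called at an adjusted p under 0.05, and 0 of 7 had an unadjusted p under 0.05 (edgeR's quasi-likelihood test; DESeq2 also called 0). Over all 14253 tested genes 56.8% were called and 61% had an unadjusted p under 0.05. Fitted log2 fold changes of the copies ran from -0.17 to 0.16 with a median of -0.05, and 3 were positive and 4 negative. Over all genes the median was -0.01 and the median size, regardless of sign, was 0.37. The 95% intervals of the copies reached from -0.36 to 0.43, so differences of that size are not shown to be absent. No copy had groups without overlap, which 53.5% of tested genes had.

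The mutant plasmid was then compared with Control, with the same Control libraries. Of 7 copies 1, Gm28439, was called, where 60.7% of all tested genes were called (edgeR, adjusted p under 0.05; DESeq2 also called 1). Only that copy had an unadjusted p under 0.05, against 64.1% of tested genes. Log2 fold changes ran from -0.19 to 0.40 with a median of 0.03, 4 positive and 3 negative, and the intervals from -0.41 to 0.67. No copy was without overlap between these groups, against 51.3% of tested genes. The median size over all genes was 0.40.

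Between the plasmid groups no copy was called by edgeR or by DESeq2, and 0 of 7 had an unadjusted p under 0.05. Over all genes edgeR called 0.0421%, and 11.9% had an unadjusted p under 0.05. Log2 fold changes of SIRT5F101L against WT ran from -0.08 to 0.24 with a median of 0.05, 6 positive and 1 negative, and the intervals from -0.31 to 0.51. The median size over all genes was 0.11. No copy was without overlap, against 4.02% of tested genes. Without SIRT5F101L replicate 1, edgeR called 2212 genes between these groups in place of 6, and among the copies Gm28439 (0.34, edgeR adjusted p 0.0234).

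**Figure D2:**
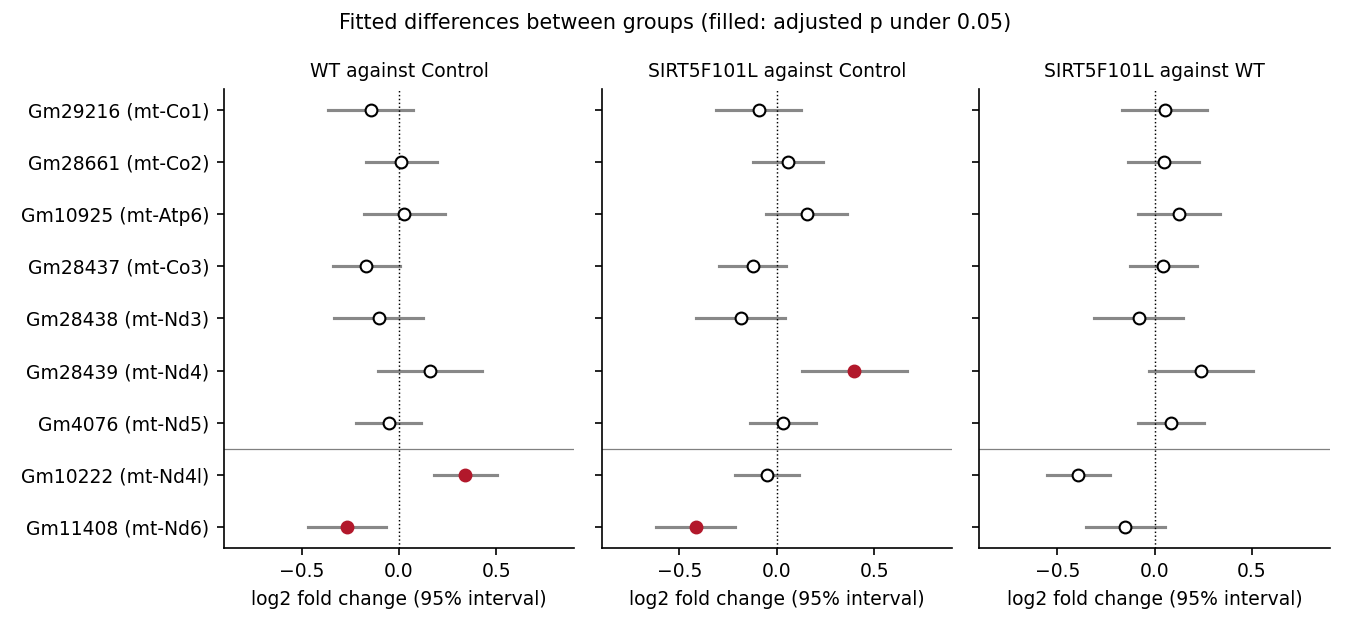
Fitted log2 fold changes with 95% intervals for the 7 copies and, under the line, 2 further copies, in the 3 comparisons; filled points have an edgeR adjusted p under 0.05. Among the 7 only Gm28439 is filled, for SIRT5F101L against Control.

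The cytochrome oxidase copies come first by role. mt-Co1, mt-Co2 and mt-Co3 encode the core of complex IV, which passes electrons to oxygen. Gm29216, the mt-Co1 copy, was at 3280, 3064, 3682 and 4136 CPM in Control replicates 1 to 4, at 2816, 3204, 3129 and 3662 in WT, and at 3541, 3904, 3006 and 2830 in SIRT5F101L. The highest library was Control replicate 4 and the lowest WT replicate 1, and the 3 groups overlapped. Its log2 fold change was -0.14 (SE 0.10, adjusted p 0.248 by edgeR) for WT and -0.09 (SE 0.10, adjusted p 0.460 by edgeR) for SIRT5F101L against Control. Without Control replicate 4 these were -0.063 and -0.012.

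Gm28661, the mt-Co2 copy, had the highest mean CPM of the 7 over the 12 libraries, although in SIRT5F101L the mean of Gm10925 (3809 CPM) was above that of Gm28661 (3795 CPM). It was at 3349, 3348, 3755 and 4123 CPM in Control, 3519, 3714, 3469 and 3998 in WT, and 3980, 4377, 3501 and 3323 in SIRT5F101L. SIRT5F101L replicate 4 was the lowest and SIRT5F101L replicate 2 the highest, with overlap between all groups. The log2 fold change was 0.01 (95% interval -0.17 to 0.19, edgeR adjusted p 0.917) for WT and 0.06 (-0.12 to 0.24, edgeR adjusted p 0.578) for SIRT5F101L.

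Gm28437, the mt-Co3 copy, was at 3196, 3619, 3644 and 3938 CPM in Control, 2952, 3254, 3044 and 3566 in WT, and 3522, 3636, 3204 and 2862 in SIRT5F101L. In WT, 2 of 4 libraries lay under the lowest Control library and the others within the Control range. Its log2 fold change for WT was -0.17 (SE 0.08, adjusted p 0.0902 by edgeR), and it passed the threshold without Control replicate 1 (-0.22, edgeR adjusted p 0.0369) or WT replicate 4 (-0.22, edgeR adjusted p 0.0336). Over its 17 alternatives that adjusted p ran from 0.0292 to 0.245. For SIRT5F101L it was -0.12 (SE 0.08, adjusted p 0.208 by edgeR).

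mt-Atp6 encodes the subunit of ATP synthase that forms its proton channel. Its copy Gm10925 was at 2969, 3276, 3453 and 3999 CPM in Control, 3389, 3415, 3318 and 3838 in WT, and 3600, 4659, 3799 and 3177 in SIRT5F101L. SIRT5F101L replicate 2 was the highest library and Control replicate 1 the lowest, with overlap between all groups. The log2 fold change was 0.03 (SE 0.10, adjusted p 0.835 by edgeR) for WT and 0.15 (SE 0.10, adjusted p 0.194 by edgeR) for SIRT5F101L. The latter was 0.042 (edgeR adjusted p 0.718) without SIRT5F101L replicate 2 and 0.23 (edgeR adjusted p 0.0561) without Control replicate 4. It passed only with each library's trend on transcript length as an offset, chosen after the data were seen (0.27, edgeR adjusted p 0.0279).

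The 3 copies of complex I genes differed most among themselves. mt-Nd3, mt-Nd4 and mt-Nd5 encode membrane subunits of complex I, which pumps protons as it oxidises NADH. Gm28439, the copy of the first 876 bases of mt-Nd4, was at 857, 1082, 1013 and 1234 CPM in Control, 1258, 1122, 1063 and 1238 in WT, and 1086, 1860, 1389 and 1185 in SIRT5F101L. In SIRT5F101L, 2 libraries lay above every Control library and 2 within the Control range.

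Gm28439 rose 1.32-fold in SIRT5F101L against Control (95% interval 1.09 to 1.59; log2 fold change 0.40, SE 0.13, edgeR adjusted p 0.0115). The call was lost without SIRT5F101L replicate 2 (0.22, edgeR adjusted p 0.0783), without Control replicate 1 (0.31, edgeR adjusted p 0.0547) and with a robust prior (0.40, edgeR adjusted p 0.0541). With SIRT5F101L replicate 1 left out it was 0.50 (edgeR adjusted p 8.80e-05), and with the length trend as an offset 0.53 (edgeR adjusted p 0.00162). For WT against Control it was 0.16 (SE 0.13, adjusted p 0.298 by edgeR), with 0.075 without Control replicate 1 and 0.25 without Control replicate 4. Between SIRT5F101L and WT it was 0.24 (SE 0.13, adjusted p 0.456 by edgeR), so the 2 plasmid groups are not shown to differ. Gm10222, the copy that overlaps Gm28439 by 4 bases, was at -0.05 (edgeR adjusted p 0.591) in SIRT5F101L against Control.

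Gm28438, the mt-Nd3 copy, was at 242, 308, 290 and 303 CPM in Control, 266, 284, 266 and 248 in WT, and 300, 273, 252 and 182 in SIRT5F101L. SIRT5F101L replicate 4 was the lowest of all libraries. The log2 fold change was -0.10 (SE 0.11, adjusted p 0.436 by edgeR) for WT and -0.19 (SE 0.11, adjusted p 0.151 by edgeR) for SIRT5F101L. Without SIRT5F101L replicate 1 the latter was -0.28 and passed (edgeR adjusted p 0.00734), opposite in sign to Gm28439 in the same libraries.

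Gm4076, the copy of part of mt-Nd5 on chromosome 13, was at 211, 210, 220 and 249 CPM in Control, 206, 216, 209 and 225 in WT, and 214, 274, 213 and 208 in SIRT5F101L. Apart from SIRT5F101L replicate 2 and Control replicate 4, every library lay between 206 and 225 CPM. The log2 fold change was -0.05 (95% interval -0.22 to 0.11, edgeR adjusted p 0.599) for WT and 0.03 (-0.14 to 0.20, edgeR adjusted p 0.753) for SIRT5F101L. Although it differs from its source and lies on another chromosome, its level moved over the libraries much like the sum of the 7. The root-mean-square difference between the log2 values of Gm4076 and of the sum, each centred on its own mean over 12 libraries, was 0.055. It was 0.041 for Gm28661, 0.067 for Gm10925, 0.082 for Gm29216 and Gm28437, 0.18 for Gm28438 and 0.21 for Gm28439. The sum holds each copy itself, so these are descriptions.

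The make-up of the counts within the 7 copies is free of the scaling between libraries. Gm28437 made up 21.9% to 24.3% of them in Control, 20.5% to 21.4% in WT and 19.2% to 21.7% in SIRT5F101L, so that all 8 plasmid libraries lay below all 4 Control libraries. Gm28439 made up 6.08% to 7.26% in Control and 7.33% to 8.73% in WT. In SIRT5F101L it was 6.69% in replicate 1, within the Control range, and 8.61% to 9.80% in the other 3. Gm28661 was at most 23.7% in Control and at least 23.8% in WT, and Gm10925 at most 22.2% in Control and at least 22.5% in WT. In SIRT5F101L both overlapped with Control. Gm29216 (20.6% to 23.3% in Control, 19.5% to 21.8% in WT) and Gm28438 (1.69% to 2.07% and 1.48% to 1.87%) overlapped with Control in both plasmid groups. In all, 4 of 7 shares had no overlap with Control in WT and 1 of 7 in SIRT5F101L. By CPM, a different measure, 53.5% and 51.3% of all tested genes had none. Gm10925 averaged 21.7% ± 0.526 in Control, 22.9% ± 0.444 in WT and 23.6% ± 1.22 in SIRT5F101L (SD, n = 4). Gm4076 kept within 1.32% to 1.51% in all 12 libraries. Shares of 1 sum are not independent of each other, and no test was made of them. The slope on transcript length and the share of Gm28439 were both highest in WT replicate 1 and both lowest in SIRT5F101L replicate 1 of their groups, and their order differed among the other libraries. In WT replicates 1 to 4 slopes of 0.697, 0.624, 0.647 and 0.609 stood beside shares of 8.73%, 7.38%, 7.33% and 7.38%. In SIRT5F101L slopes of 0.586, 0.736, 0.726 and 0.748 stood beside 6.69%, 9.80%, 9.04% and 8.61%. In Control slopes of 0.599, 0.587, 0.579 and 0.601 stood beside 6.08%, 7.26%, 6.31% and 6.86%, and the lowest share was in a library with one of the higher slopes. The part of length in the share was not tested.

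**Figure D3:**
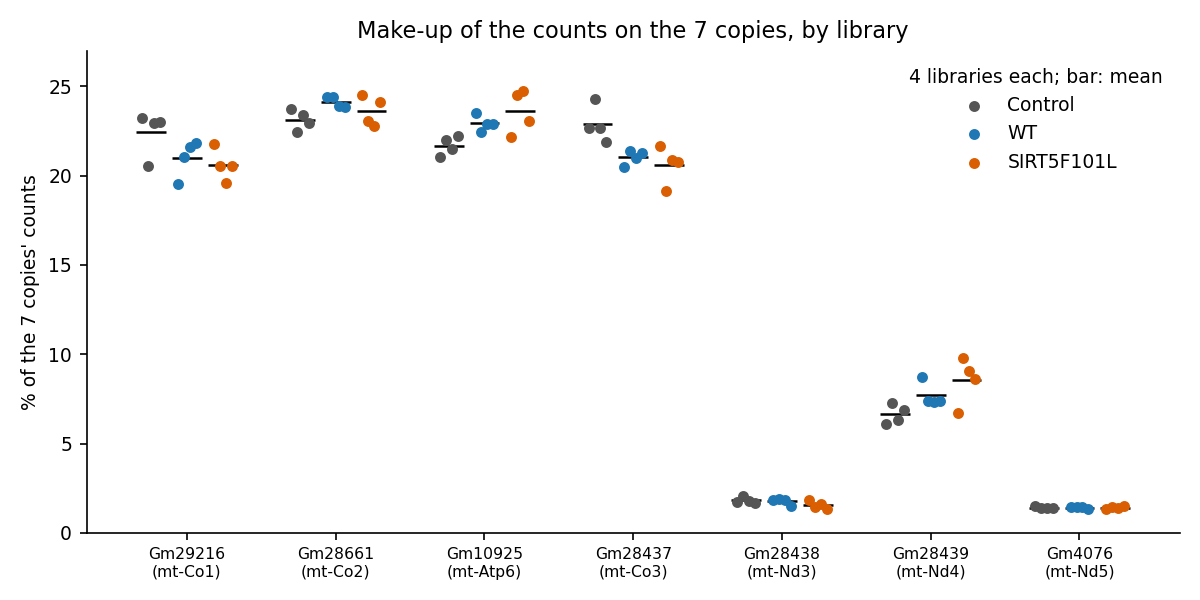
Share of each copy in the counts of the 7, in percent, for every library; bars are group means over 4 libraries. Gm28437 is lower in all 8 plasmid libraries than in any Control library, and Gm28439 is higher in 7 of the 8.

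Other annotated copies of mitochondrial genes were then looked up. With at least 90% identity over at least 100 bases and 50% of the transcript, 16 annotated genes matched a mitochondrial gene, the 7 described here and 9 others. Of these 16, 11 had counts and 5 were at 0 in all libraries. The 7 copies with at least 99.7% identity, Gm10222 and all members but Gm4076, stood at 597 to 6818 CPM per kb, and the 9 copies at 97.6% or less at 0 to 310. Among those 9, identity did not order the levels. Gm13340, a full-length copy of mt-Co1 with 97.6% identity, was at 0 in all libraries, as were Gm13339 (96.7% identity with mt-Nd2) and Gm13341 (95.9% with mt-Co2). Gm4076 at 95.2% and Gm11408, a copy of mt-Nd6 at 93.6%, averaged 221 and 161 CPM. Of the 13 mitochondrial protein genes, 9 had a copy over 100 CPM, while mt-Nd1 and mt-Atp8 had no copy by this rule and the only copy of mt-Cytb, Gm11410, averaged 0.536 CPM with 2 to 18 counts per library. The 7 therefore match part of the mitochondrial genome only, and how much of their counts came from it was not tested.

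**Figure D4:**
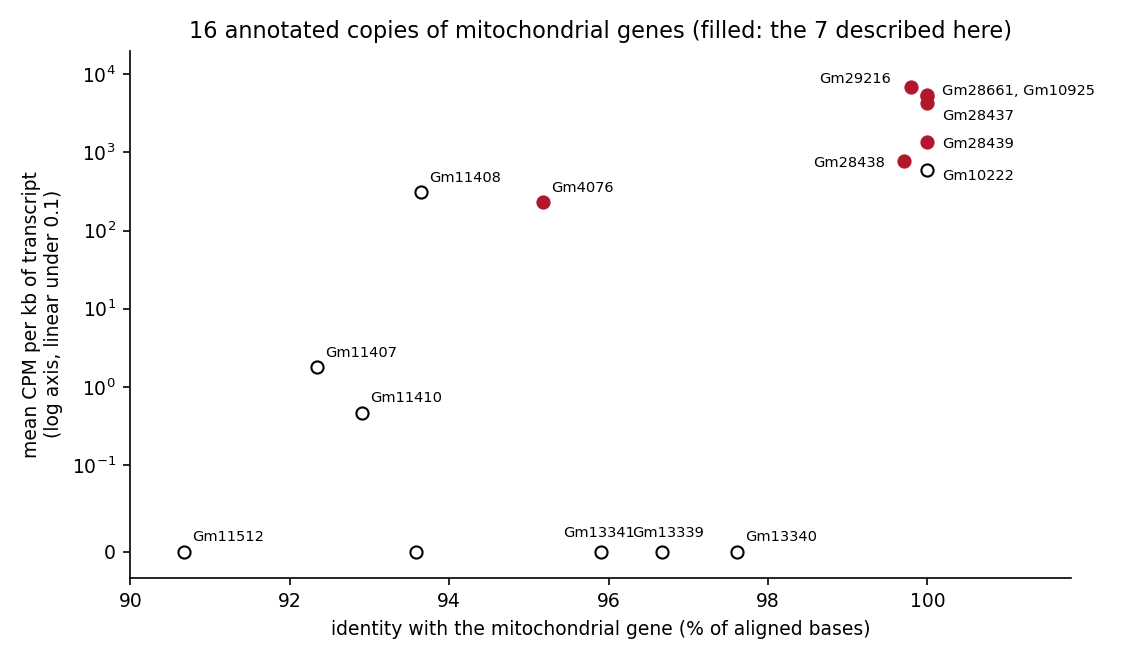
Mean level per kb of transcript over 12 libraries against identity with the mitochondrial gene, for all 16 annotated copies; filled points are the 7 described here and the vertical axis is logarithmic above 0.1. The copies with at least 99.7% identity lie at 597 to 6818 CPM per kb, and those with 93.6% to 97.6% lie either at 0 or at 229 to 310 CPM per kb.

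Gm10222, the mt-Nd4l copy between Gm28438 and Gm28439, has 100% identity with its source. It was at 149, 147, 166 and 190 CPM in Control, 188, 204, 218 and 216 in WT, and 171, 146, 159 and 153 in SIRT5F101L. It rose in WT against Control (log2 fold change 0.34, SE 0.08, edgeR adjusted p 0.000936) and was at -0.05 (edgeR adjusted p 0.591) in SIRT5F101L. All 4 SIRT5F101L libraries lay below all 4 WT libraries, with a log2 fold change of -0.39 (SE 0.08, adjusted p 0.0941 by edgeR) that did not pass the test. Gm28439, the copy that overlaps it by 4 bases, had 0.24 in that comparison. In SIRT5F101L against Control Gm28439 had 0.40 (edgeR adjusted p 0.0115), so these adjoining copies did not move together. Gm10222 is 294 bases long and Gm28439 876, and the slopes on length were higher in 3 SIRT5F101L libraries than in any WT library. Whether length accounts for the difference was not tested for this gene.

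Gm11408 fell against Control in both plasmid groups, by 0.27 on the log2 scale in WT (SE 0.10, adjusted p 0.0242 by edgeR) and by 0.42 in SIRT5F101L (SE 0.10, adjusted p 0.000943 by edgeR). Its levels were 187 ± 29.3, 155 ± 13.5 and 140 ± 14.2 CPM (SD, n = 4). mt-Nd6 is the one mitochondrial protein gene on the other strand, and the strand setting of the counting is not stated, so reads from the opposite strand cannot be told apart. Gm11407, a further copy of mt-Nd5 with 92.3% identity, averaged 1.90 CPM, with log2 fold changes of 0.11 and 0.04 that did not pass (edgeR adjusted p 0.724 and 0.904).

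The nearest genes that passed the filter on either side of the copies were read for comparison. Col19a1, 24062 bases before the chromosome 1 block in GRCm38, averaged 0.495 CPM, and Lmbrd1, a lysosomal membrane protein gene 62432 bases after it, 115 CPM. Per kb this was 0.091 and 22.0 CPM, against 776 to 6818 for the 6 copies between them. Lmbrd1 rose in WT (log2 fold change 0.68, SE 0.06, edgeR adjusted p 1.83e-08) and in SIRT5F101L (0.79, SE 0.06, adjusted p 1.59e-09 by edgeR). Around Gm4076 they were Ccnh, 61893 bases away, and Tmem161b, 830408 bases away, and the annotated gene Gm47746, 13205 bases away, was not among the tested genes. Ccnh fell by 0.32 (SE 0.09, adjusted p 0.00708 by edgeR) and 0.26 (SE 0.09, adjusted p 0.0245 by edgeR), and Tmem161b rose by 0.49 (SE 0.12, adjusted p 0.00233 by edgeR) and 0.60 (SE 0.12, adjusted p 0.000292 by edgeR). Per kb, Ccnh was at 16.9 CPM and Tmem161b at 4.53.

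The genes whose pattern over the libraries was most like that of the summed copies were found by the same root-mean-square difference. The search covered 13828 tested genes with a symbol, a count in every library and no mitochondrial match by the rule used for the copies. The closest were AC115970.1 (0.072), Mindy1 (0.084), Nim1k (0.084), Tmem138 (0.085) and Uchl3 (0.093), where the median gene was at 0.31. Their mean levels ran from 4.60 CPM for Tmem138 to 85.4 CPM for AC115970.1. Uchl3, for example, averaged 23.3 CPM in Control, 22.4 in WT and 22.3 in SIRT5F101L.

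Nuclear genes of mitochondrial DNA replication, transcription, RNA processing and decay and translation, with coactivators and regulators, were listed beside the copies. Of 55 listed genes 53 were tested. In WT against Control 22 passed, 14 higher and 8 lower, where 28.7% of all tested genes were higher and 28.1% lower, and the list's median log2 fold change was 0.01 against -0.01 over all genes. In SIRT5F101L 18 passed, 9 higher and 9 lower (30% and 30.7% over all genes), with a median of -0.03 against -0.02. Ppargc1a, a coactivator of mitochondrial biogenesis, rose from 8.15 ± 1.54 CPM to 19.7 ± 2.31 in WT (log2 fold change 1.27, edgeR adjusted p 2.35e-07) and 19.3 ± 3.40 in SIRT5F101L (1.24, edgeR adjusted p 3.14e-07). Pnpt1, which degrades mitochondrial RNA, rose by 0.59 and 0.71 on the log2 scale, and Lrpprc, which stabilises mitochondrial messenger RNAs, by 0.49 and 0.52.

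Tefm, the elongation factor of mitochondrial transcription, fell from 11.1 ± 1.28 CPM to 7.99 ± 0.835 in WT (-0.48, edgeR adjusted p 0.00514) and 6.88 ± 1.24 in SIRT5F101L (-0.70, edgeR adjusted p 0.000166). Mterf2, of the mitochondrial termination factor family, fell by 0.49 and 0.50, and Mtrf1, a mitochondrial release factor, by 0.48 and 0.43 on the log2 scale. Rnaseh1, which removes RNA primers from mitochondrial DNA, fell by 0.34 and 0.56. Of the 10 listed transcription genes 3 fell and 1 rose in each comparison with Control, where 28.1% and 30.7% of all tested genes fell. The fitted values were negative for 9 of 10 in both, with medians of -0.29 and -0.25 against -0.01 and -0.02 over all genes. Both comparisons share the Control libraries. The medians in WT and SIRT5F101L were 0.15 and 0.06 for DNA replication and 0.01 and -0.01 for RNA processing and decay. They were 0.06 and 0.03 for translation activators and 0.19 and 0.16 for coactivators and regulators. Between the plasmid groups 0 of 53 passed, by edgeR, and 2 had an unadjusted p under 0.05 (11.9% over all genes), Esrra (-0.33) and Mss51 (0.70), each with a higher edgeR adjusted p of 0.313 and 0.363. Fastkd5 was listed at 0.

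Nuclear-encoded subunits of complexes I, IV and V, the partners of the proteins that the mitochondrial genes encode, were listed too. Of 70 listed genes 63 were tested, and Ndufa1, Ndufa13, Ndufb8, Ndufb11, Cox6a2 and Cox7b were listed at 0. A listed 0 is not read as absence of expression, since every identifier of the X chromosome was at 0 as well. In WT against Control 20 passed (31.7%, against 56.8% of all tested genes), 5 higher and 15 lower, where 28.7% and 28.1% of all tested genes were higher and lower. The list's median log2 fold change was -0.15 against -0.01 over all genes. In SIRT5F101L against Control 44 passed (69.8%, against 60.7%), 2 higher and 42 lower, where 30% and 30.7% of all tested genes were higher and lower, and the median was -0.37 against -0.02. By complex, 22 of 32 tested complex I subunits, 9 of 14 of complex IV and 11 of 17 of complex V were lower in SIRT5F101L. Cox4i2, an alternative complex IV subunit, fell from 63.1 ± 1.43 CPM to 29.7 ± 1.90 in WT (-1.09, edgeR adjusted p 1.62e-10) and 30.8 ± 3.02 in SIRT5F101L (-1.04, edgeR adjusted p 2.95e-10). Atp5e, the epsilon subunit of ATP synthase, fell by 0.62 and 0.95, and Cox6b2 by 0.80 and 0.94 on the log2 scale.

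Atp5b, the catalytic beta subunit of ATP synthase, rose from 844 ± 59.1 CPM to 1166 ± 51.1 in WT (0.47, edgeR adjusted p 8.20e-06) and 1097 ± 93.7 in SIRT5F101L (0.38, edgeR adjusted p 8.30e-05). Ndufs1, a complex I subunit, rose by 0.20 and 0.26 (edgeR adjusted p 0.0316 and 0.00479), and Cox5a and Cox7a1 rose in WT by 0.36 and 0.77 on the log2 scale. Atp5f1, the next highest called subunit in SIRT5F101L against Control after Atp5b and Ndufs1, was at -0.25 there (SE 0.08, adjusted p 0.00773 by edgeR). Summed over the list, nuclear subunits were at 7840 ± 356 CPM in Control, 7501 ± 565 in WT and 6638 ± 1169 in SIRT5F101L, with 8369 CPM in the highest SIRT5F101L library and 5798 in the lowest. The summed copies of mitochondrial genes had group means of 15762, 15221 and 16088 CPM in the same libraries. Between the plasmid groups 0 of 63 nuclear subunits passed by edgeR and 25 had an unadjusted p under 0.05, where 11.9% of all tested genes had one, among them Ndufa12 (-0.35, edgeR adjusted p 0.355) and Ndufs5 (-0.63, edgeR adjusted p 0.360). Without SIRT5F101L replicate 1, 48 passed, when 2212 genes in all were called. With the length trend as an offset 0 passed between the plasmid groups and 45 in SIRT5F101L against Control.

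**Figure D5:**
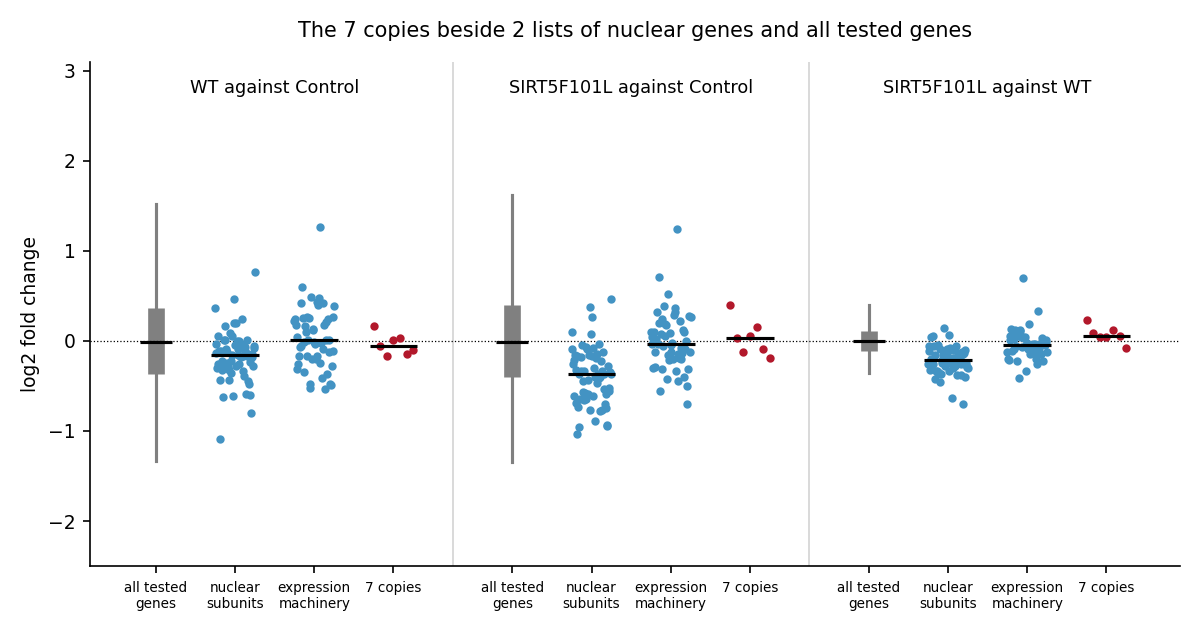
Log2 fold changes in the 3 comparisons for all tested genes (bar 25 to 75%, line 5 to 95%), nuclear subunits of complexes I, IV and V, genes of mitochondrial expression, and the 7 copies; points are genes and black lines medians. The copies lie between -0.19 and 0.40, and the median of nuclear subunits is -0.37 in SIRT5F101L against Control.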

How the data were processed

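Per the labels' protocols, poly(A) RNA was captured and read as 150 bp pairs. The authors deposited raw read counts per Ensembl gene identifier, 1 table per library, with no header. Per the submitters' processing notes, FastQC 0.11.9, HISAT2 2.2.1, HTSeq 2.0.2 and DESeq2 1.38.3 were used and the build was GRCm39. The roles of these tools, the annotation, the strand setting and the handling of reads that fit several places are not given in the sources used here. Those settings decide how many reads of mitochondrial origin reach a nuclear copy.

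The members and gene lists were chosen with earlier results of these data known. Of 57010 identifiers, 52029 were paired with a symbol from GENCODE M21. Its transcripts (GRCm38, used for sequences, lengths and gene order only) were matched to the 37 mitochondrial genes with BLAST 2.17.0. Levels are CPM scaled by TMM factors and each library's total count.

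The test was edgeR 4.0.16 in R 4.3.3: its expression filter by group (14253 genes), a quasi-likelihood fit of 12 libraries with 9 residual degrees of freedom, 2-sided, Benjamini-Hochberg adjustment over all tested genes and a threshold of 0.05. SE is the size of the log2 fold change divided by the square root of F. Totals of 15095357 to 24242139 counts put each copy at 3205 counts or more per library, so counting error is small beside the spread between libraries. No pair of libraries was identical. Scripts were tested on simulated data.

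Named genes were the 7 copies, Sirt5, other copies with a mean of at least 1 CPM, the nearest tested neighbours, the 5 genes most like the summed copies, Col2a1, Acan and Sox9, and in each list and comparison the 3 highest and 3 lowest called genes, or the 2 with the lowest p. Copies at lower levels and the remaining list examples were named after their values were seen. Prorp and Ndufb1 had no matching symbol. Alternatives were RLE and upper-quartile scaling, scaling without the copies, filters of 1 count in any library or 1 CPM on average, DESeq2 1.42.0, a robust prior, only the 8 libraries compared, leaving out each library, and, added after the data were seen, a length trend (loess, span 0.5) as an offset.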

Additional observations from a re-analysis of the deposited data

Results flagged for a closer look

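Values far from the other 3 libraries of their group were looked for in 18 measures, the levels and shares of the copies, in 3 groups. Of these 54 screens 5 found one, where chance gives about 5% or 2.70. Gm4076 was at 274 CPM in SIRT5F101L replicate 2, against 208 to 214 CPM in the others. That library also held the highest summed level of the copies. Gm11408 was at 135 CPM in WT replicate 1, against 162 to 163 CPM. Gm29216 made up 20.6% of the counts on the copies in Control replicate 2, against 22.9% to 23.3%. Gm28438 made up 1.48% in WT replicate 4, against 1.83% to 1.87%. Gm28439 made up 8.73% in WT replicate 1, against 7.33% to 7.38%.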

How the results depend on the processing

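No paired analysis was possible because the labels give no replicate numbers that tie libraries of different groups. Upper-quartile scaling moved the median log2 fold change of all genes by -0.050 and -0.045 against Control. With it Gm28437 passed for WT against Control (-0.22), so 1 copy was called (8169 genes in all), and the signs of Gm28661 (-0.038) and Gm10925 (-0.023) there and of Gm4076 (-0.013) in SIRT5F101L against Control turned. With a filter of 1 count, 2 copies were called for WT (Gm28437 at -0.17 and Gm28439 at 0.16, 8365 genes in all), 2 for SIRT5F101L (adding Gm28438 at -0.19, 8892 genes in all), and 1 between the plasmids (Gm28439 at 0.23), with 354 genes, 1 gene of mitochondrial expression and 21 nuclear subunits there. A robust prior left 0 copies for SIRT5F101L (Gm28439 at 0.40, 8622 genes in all) and 2 genes between the plasmids. DESeq2 called 39 genes there, and the fit of only the 8 libraries compared called 2 there and 33 nuclear subunits for WT. The length offset called 2 copies for SIRT5F101L (adding Gm10925 at 0.27, 8582 genes in all) and turned Gm29216 to 0.0065 there, with Gm28661 at 0.17, Gm28437 at -0.012, Gm28438 at -0.11 and Gm4076 at 0.16. For WT it gave -0.016 for Gm4076. Between the plasmids it called 20 genes and turned Gm28438 to 0.031, with Gm29216 at 0.17, Gm28661 at 0.15, Gm28437 at 0.14, Gm10925 at 0.24 and Gm4076 at 0.17. Without Gm28661, the copy with the highest mean over all libraries, the summed level was 12118, 11546 and 12293 CPM in Control, WT and SIRT5F101L. The cause of these changes was not tested.

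Leaving out 1 library gave 0 to 1 called copies for WT (7549 to 7824 genes in all), 0 to 2 for SIRT5F101L (8030 to 9179) and 0 to 1 between the plasmids, where 0 to 2212 genes, 0 to 4 genes of mitochondrial expression and 0 to 48 nuclear subunits were called, the upper ends without SIRT5F101L replicate 1. For WT against Control, Gm28661 ran from -0.030 to 0.075 (negative without Control replicate 1 or 2 or WT replicate 4), Gm10925 from -0.036 to 0.11 (negative without Control replicate 1 or WT replicate 4), Gm28437 from -0.22 to -0.12, Gm4076 from -0.081 to 0.0039 (positive without Control replicate 4), Gm29216 from -0.21 (without WT replicate 4) to -0.063 (without Control replicate 4), Gm28438 from -0.18 (without Control replicate 1) to -0.068 (without Control replicate 2) and Gm28439 from 0.075 (without Control replicate 1) to 0.25 (without Control replicate 4). For SIRT5F101L against Control, Gm28661 ran from -0.017 to 0.12 and Gm4076 from -0.070 to 0.088 (both negative without SIRT5F101L replicate 2), Gm28438 from -0.28 to -0.058, Gm28439 from 0.22 to 0.50, Gm29216 from -0.18 (without SIRT5F101L replicate 2) to -0.012 (without Control replicate 4), Gm28437 from -0.18 (without Control replicate 1) to -0.060 (without SIRT5F101L replicate 4) and Gm10925 from 0.042 (without SIRT5F101L replicate 2) to 0.23 (without Control replicate 4). Between the plasmids, Gm29216 ran from -0.036 to 0.12 (negative without WT replicate 1 or SIRT5F101L replicate 2), Gm28661 from -0.030 to 0.10, Gm28437 from -0.0044 to 0.11 and Gm4076 from -0.018 to 0.12 (all 3 negative without SIRT5F101L replicate 2), Gm28438 from -0.18 to 0.045 (positive without SIRT5F101L replicate 4), Gm28439 from 0.060 to 0.34 and Gm10925 from 0.014 (without SIRT5F101L replicate 2) to 0.20 (without SIRT5F101L replicate 4).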
